A study of Mus musculus with 16 samples.

Results

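The 7 genes described here encode surface proteins by which stem cells and early progenitors of mouse bone marrow are sorted: Kit, Ly6a, Slamf1, Cd48, Cd34, Procr and Flt3. They were taken by gene symbol, and all 7 were found among the 14829 genes of the count table and passed the filter on low counts. RNA came from cells labelled hematopoietic stem cells of 8 mice in 4 groups of 4 libraries, old dmPGE2, old vehicle, young dmPGE2 and young vehicle. Marrow of each mouse was split, and 1 portion was exposed to dmPGE2, a stabilised form of prostaglandin E2, and the other to vehicle, for 1 hour at 37 °C before the cells were sorted. Every library, vehicle included, had therefore passed through the same hour of warm incubation before the sort. The labels give neither the age in months, the sex and the strain of the mice nor the number of cells and the markers of the sort, so it is not known which of the 7 proteins had been selected on. The sample descriptions carry 2 dates, with 2 old and 2 young mice on each: old mice 485 and 486 and young mice 483 and 484 on date 2, and old mice 479 and 480 and young mice 477 and 478 on date 1. What was done on these dates is not stated.

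Hematopoietic stem cells are found in marrow that lacks the markers of mature blood lineages and carries the receptor Kit and the small membrane-anchored protein Sca-1, which Ly6a encodes. Within that fraction, stem cells are classically told from progenitors by the presence of CD150 (Slamf1) and EPCR (Procr) and by the absence or low level of CD48 (Cd48), CD34 (Cd34) and FLT3 (Flt3), which appear as cells commit to progenitor fates. The values below are messenger RNA in sorted cells, not protein at the surface. In such pooled cells, fewer cells that carry a transcript and less transcript per cell cannot be told apart.

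Both SLAM family genes lie on chromosome 1, on the same strand and 61.9 kb apart: Cd48 at chr1:171682055-171705257 and Slamf1 at chr1:171767132-171801184 (mm10, plus strand). Cd34 lies on the same chromosome at chr1:194938821-194961292 (plus strand), Procr at chr2:155751217-155755478 (plus), Kit at chr5:75574987-75656721 (plus), Flt3 at chr5:147330742-147400489 (minus) and Ly6a at chr15:74994877-74998031 (minus). Promoters of 6 of the 7 genes were matched by symbol in RefSeq (GRCm38.p6; 250 bases before to 50 after the start), and none was matched for Ly6a. Those of Slamf1, Cd48, Procr and Cd34 are shown because these genes gave the opposite age differences described next: Slamf1 at chr1:171766882-171767181, Cd48 at chr1:171681742-171682041, Procr at chr2:155750967-155751266 and Cd34 at chr1:194938571-194938870, all on the plus strand. Capitals mark, on either strand, GGAAG (the ETS core), TGTGGT (a RUNX core) and TGACG (a cAMP response half-site), none of which overlapped another.
Slamf1: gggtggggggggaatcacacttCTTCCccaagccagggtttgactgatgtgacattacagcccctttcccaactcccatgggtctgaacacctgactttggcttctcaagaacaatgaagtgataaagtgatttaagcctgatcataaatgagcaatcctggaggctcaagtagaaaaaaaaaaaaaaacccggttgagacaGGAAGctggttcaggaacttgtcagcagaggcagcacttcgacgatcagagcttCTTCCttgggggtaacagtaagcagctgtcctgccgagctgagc
Cd48: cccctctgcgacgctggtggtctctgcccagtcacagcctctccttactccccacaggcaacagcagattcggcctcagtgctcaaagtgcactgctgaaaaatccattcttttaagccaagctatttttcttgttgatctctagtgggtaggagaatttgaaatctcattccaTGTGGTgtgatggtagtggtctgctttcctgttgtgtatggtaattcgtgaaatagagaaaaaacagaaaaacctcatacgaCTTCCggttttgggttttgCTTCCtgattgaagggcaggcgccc
Procr: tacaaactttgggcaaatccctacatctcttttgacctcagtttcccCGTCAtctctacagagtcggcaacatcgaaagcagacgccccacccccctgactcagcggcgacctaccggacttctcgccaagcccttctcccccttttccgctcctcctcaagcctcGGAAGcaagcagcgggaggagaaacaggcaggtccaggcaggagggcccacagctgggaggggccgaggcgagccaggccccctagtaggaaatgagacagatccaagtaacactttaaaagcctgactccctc
Cd34: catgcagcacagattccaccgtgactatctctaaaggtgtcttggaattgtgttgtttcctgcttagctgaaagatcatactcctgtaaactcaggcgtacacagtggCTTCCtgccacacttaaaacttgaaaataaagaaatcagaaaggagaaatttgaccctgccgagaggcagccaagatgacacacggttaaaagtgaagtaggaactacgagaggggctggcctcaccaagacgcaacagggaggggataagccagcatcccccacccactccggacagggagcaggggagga
The ETS core was present in all 6 matched promoters, with 3 matches in Slamf1, 2 in Cd48 and 1 in each of the others, and 71.4% of 32851 promoters of the same length held it. The RUNX core was found once, in Cd48 (16.8% of promoters), and the cAMP response half-site once, in Procr (20.8%). A motif of GATA factors, AGATAA, was in none of the 6, against 11.2% of all promoters. Of the motifs searched, the 4 sequences shown share the ETS core only, whichever way the gene differed with age.

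Library totals were 12.96 to 15.7 M counts on date 2 and 16.7 to 19.2 M on date 1. Levels are given as CPM, counts scaled to library size with TMM factors, and levels of different genes are compared only as CPM per kb of the exons in the table. A gene was called where edgeR's quasi-likelihood test gave it an adjusted p (Benjamini-Hochberg, over all genes tested) under 0.05, and ± is the SD over 4 mice for levels and the standard error for log2 changes. The label was checked with 10 other stem cell markers, among them the transcription factors Hlf, Mecom, Hoxb5 and Meis1: none was at 0 counts in any library, and their summed level was 3322 to 3690 CPM in old and 2446 to 2688 CPM in young libraries of date 2, and 3894 to 4415 CPM in old and 3488 to 3742 CPM in young libraries of date 1.

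Old mice had more RNA of the markers that stem cells carry and less of the markers by which progenitors are recognised. In the vehicle libraries all 7 genes were called between old and young mice, with Slamf1, Procr, Ly6a and Kit higher and Flt3, Cd48 and Cd34 lower in old mice. In that fit 17.3% of 13369 genes were called, 8.47% higher and 8.86% lower. The differences ran from 1.22-fold higher for Kit to 2.33-fold higher for Slamf1 and 2.47-fold lower for Flt3. In the dmPGE2 libraries of the same mice 6 of 7 were called in the same directions, against 14.3% of 13279 genes, 7.85% higher and 6.41% lower. Since both arms came from the same 8 mice, the second is a repeat on other aliquots and not on other animals.

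**Figure D1:**
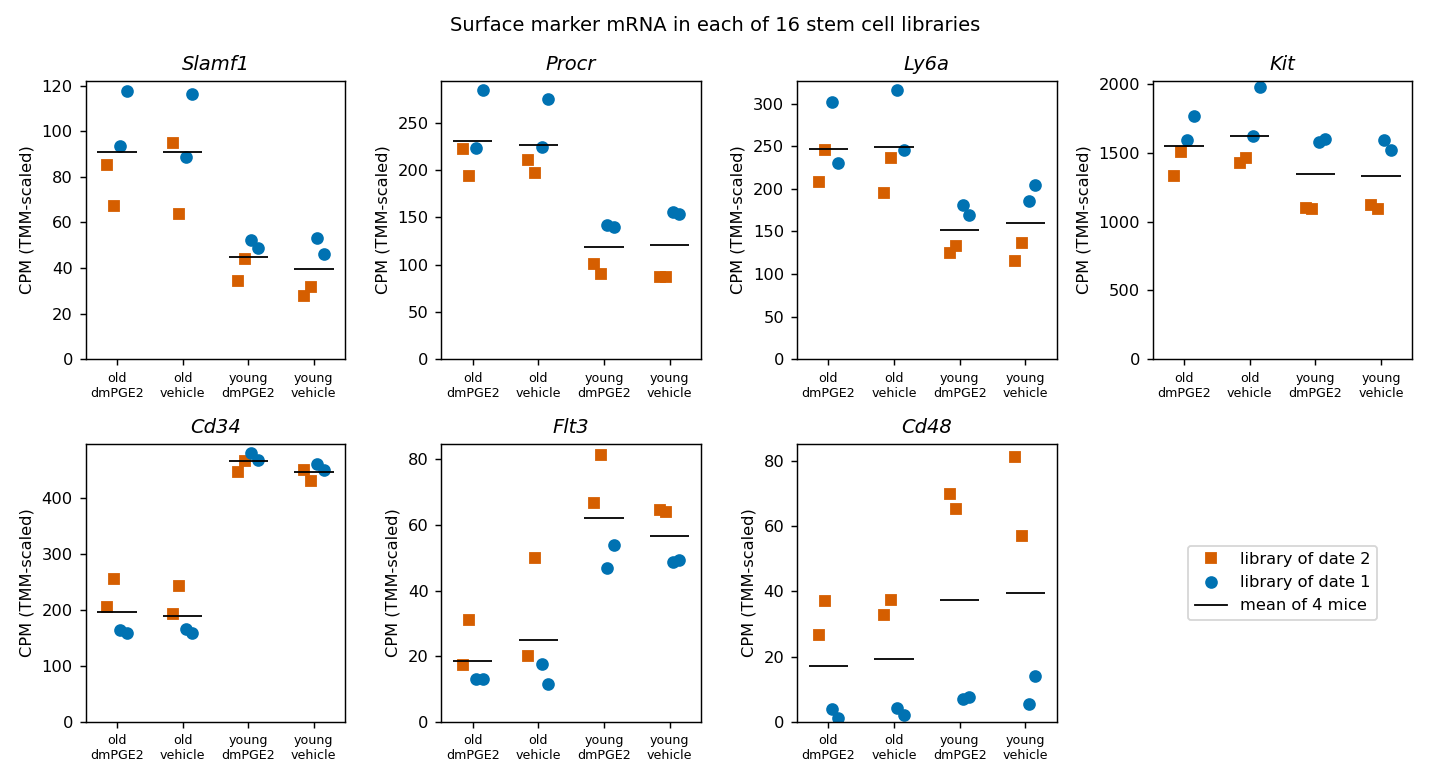
CPM of each surface marker in 16 libraries, by group along each horizontal axis, with squares for date 2, circles for date 1 and a line at the mean of 4 mice. Slamf1 and Procr stand higher and Cd34 lower in every old library than in any young library, whereas Cd48 is split first by date, with all date 2 libraries at 26.6 CPM or more and all date 1 libraries at 13.9 CPM or less.

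Among the markers of stem cells, Slamf1, the self-binding SLAM receptor CD150, had the largest log2 change. Its level in vehicle libraries was 94.9, 63.6, 88.6 and 116 CPM in old mice 485, 486, 479 and 480, against 27.9, 31.7, 52.99 and 46.2 CPM in young mice 483, 484, 477 and 478. After dmPGE2 it was 85.2, 67.3, 93.7 and 118 CPM in the old mice, against 34.3, 43.9, 52.1 and 48.7 CPM in the young mice, in the same order. The lowest old library was thus above the highest young library in both arms. The log2 change was 1.22 ± 0.15 in vehicle (2.33-fold; edgeR adjusted p = 0.000549) and 1.02 ± 0.12 in dmPGE2 (2.02-fold; edgeR adjusted p = 0.000443).

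Procr, the endothelial receptor of protein C, had 211, 197, 224 and 275 CPM in old vehicle libraries of mice 485, 486, 479 and 480, against 87.3, 86.6, 156 and 154 CPM in young vehicle libraries of mice 483, 484, 477 and 478. With dmPGE2 it had 222, 194, 224 and 285 CPM in old and 101, 89.9, 142 and 140.0 CPM in young libraries. Old and young libraries did not overlap in either arm, and within each age and arm the libraries of date 2 lay below those of date 1. Its log2 change was 0.95 ± 0.11 in vehicle (1.93-fold; edgeR adjusted p = 0.000376) and 0.98 ± 0.10 in dmPGE2 (1.98-fold; edgeR adjusted p = 0.000168).

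Ly6a encodes Sca-1, a glycolipid-anchored protein of the Ly6 family, and has close relatives among the Ly6 genes, so reads shared with them could not be checked. Old vehicle libraries held 196, 236, 317 and 246 CPM and young vehicle libraries 116, 137, 185 and 204 CPM, with a small overlap: young mouse 478 of date 1 lay above old mouse 485 of date 2. In dmPGE2 libraries the groups did not overlap, with 208, 246, 303 and 230.4 CPM in old and 124, 133, 181 and 169.7 CPM in young mice. The log2 change was 0.65 ± 0.10 in vehicle (1.57-fold; edgeR adjusted p = 0.00196) and 0.71 ± 0.10 in dmPGE2 (1.64-fold; edgeR adjusted p = 0.00108).

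Kit, the receptor tyrosine kinase for stem cell factor, had the highest level per kb of the 7 and the smallest age difference. Old vehicle libraries had 1424, 1466, 1626 and 1979 CPM, against 1121, 1089, 1597 and 1518 CPM in young vehicle libraries. The groups overlapped across dates, since young libraries of date 1 exceeded old libraries of date 2, but not within either date. The log2 change in vehicle was 0.29 ± 0.07 (1.22-fold; edgeR adjusted p = 0.0163). This call was lost without mouse 480 (edgeR adjusted p = 0.0689) or without mouse 484 (edgeR adjusted p = 0.0501). In dmPGE2 libraries Kit had 1329, 1506, 1594 and 1769.6 CPM in old and 1101, 1095, 1581 and 1601 CPM in young mice. There the log2 change of 0.22 ± 0.08 was not called (edgeR adjusted p = 0.0810). It was called by DESeq2 (adjusted p = 0.0279), in the summed libraries of each mouse (0.26 ± 0.07; edgeR adjusted p = 0.0159) and without mouse 479 (0.28 ± 0.07; edgeR adjusted p = 0.0378).

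Among the markers of progenitors, Cd34, a sialomucin of stem and progenitor cells, had the smallest p for age in vehicle. Old vehicle libraries had 192, 243, 166 and 158 CPM, against 450.1, 430.5, 460.3 and 449 CPM in young vehicle libraries. In dmPGE2 libraries the values were 205, 255, 164 and 159 CPM in old and 447, 466, 481 and 468 CPM in young mice. The 4 young vehicle libraries lay close together, whereas the old ones spread more widely and were higher on date 2. The log2 change was -1.26 ± 0.10 in vehicle (2.39-fold lower; edgeR adjusted p = 4.8e-05) and -1.27 ± 0.12 in dmPGE2 (2.42-fold lower; edgeR adjusted p = 0.000105). An antisense gene, Gm16897, overlaps 5.65% of the exon length of Cd34, and without stated strand its reads could not be told apart there.

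Flt3, the receptor for FLT3 ligand and a marker of multipotent and lymphoid-primed progenitors, had 20.2, 49.98, 17.7 and 11.6 CPM in old vehicle libraries, against 64.5, 64.0, 48.7 and 49.3 CPM in young vehicle libraries. Old mouse 486 stood above the other old mice and reached the young libraries of date 1, so that the vehicle groups overlapped. With dmPGE2, Flt3 had 17.2, 31.1, 13.01 and 13.07 CPM in old and 66.6, 81.3, 46.98 and 53.8 CPM in young mice, without overlap. The log2 change was -1.31 ± 0.28 in vehicle (2.47-fold lower; edgeR adjusted p = 0.00839) and -1.78 ± 0.18 in dmPGE2 (3.43-fold lower; edgeR adjusted p = 0.000186).

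Cd48, a glycolipid-anchored SLAM family protein that binds CD244, was the most uneven marker across libraries. Old vehicle libraries had 32.9, 37.4, 4.13 and 2.03 CPM in mice 485, 486, 479 and 480, against 81.3, 57.1, 5.51 and 13.9 CPM in young mice 483, 484, 477 and 478. With dmPGE2 it had 26.6, 37.1, 3.82 and 1.06 CPM in old and 69.7, 65.4, 6.85 and 7.53 CPM in young mice. The smallest of these levels, in old mouse 480 after dmPGE2, came from 17 counts. Within each date every old library lay below every young one, but old libraries of date 2 were above young libraries of date 1. The log2 change with age, fitted with a term for date, was -1.28 ± 0.30 in vehicle (2.42-fold lower; edgeR adjusted p = 0.0143) and -1.27 ± 0.27 in dmPGE2 (2.41-fold lower; edgeR adjusted p = 0.0114).

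**Figure D2:**
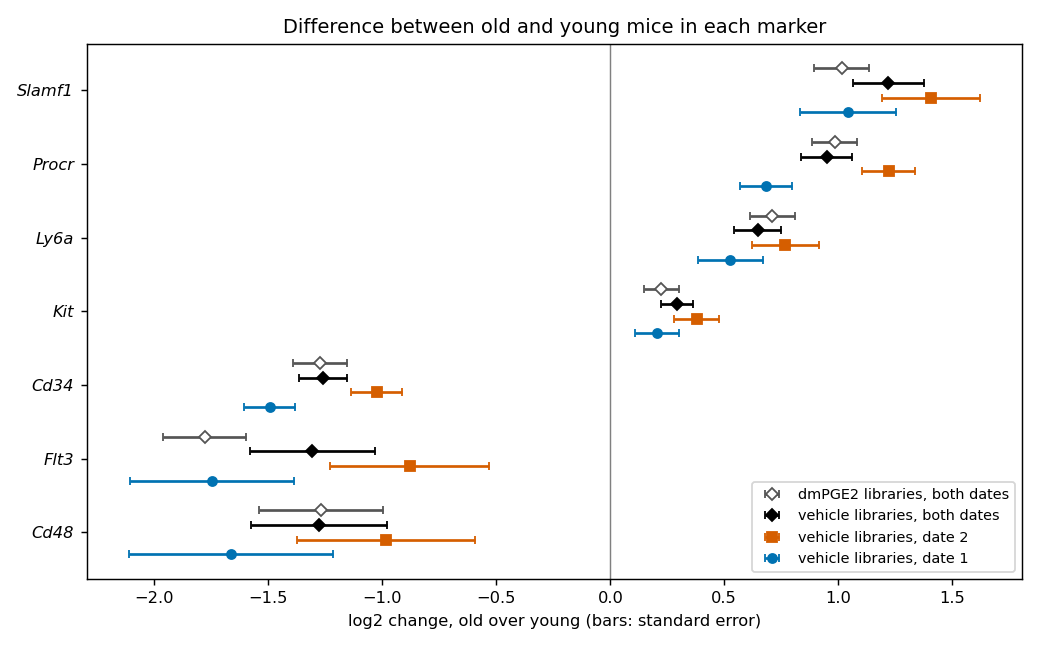
Log2 change of old over young mice for each marker (horizontal axis; bars are standard errors), in dmPGE2 libraries of both dates, vehicle libraries of both dates and vehicle libraries of each date. Slamf1, Procr, Ly6a and Kit lie to the right of 0 and Cd34, Flt3 and Cd48 to the left in every set, from -1.78 for Flt3 in dmPGE2 libraries to 1.41 for Slamf1 on date 2.

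Each date was also taken alone, with 2 old and 2 young mice, in the fit of the vehicle libraries that gave every age and date its own term. On date 2, 5 of the 7 were called, Kit (0.38 ± 0.10), Ly6a (0.77 ± 0.15), Slamf1 (1.41 ± 0.22) and Procr (1.22 ± 0.12) higher and Cd34 (-1.02 ± 0.11) lower in old mice, against 7.91% of genes (4.67% higher and 3.24% lower). Cd48 (-0.98 ± 0.39) and Flt3 (-0.88 ± 0.35) had the same sign there but were not called (edgeR adjusted p = 0.161 and 0.159), and the Flt3 change was -1.68 ± 0.28 without old mouse 486 (edgeR adjusted p = 0.0117) and -0.37 ± 0.25 without old mouse 485 (edgeR adjusted p = 0.480). Date 1 gave 4 calls against 6.47% of genes (3.52% higher and 2.95% lower), Slamf1 (1.04 ± 0.21) and Procr (0.68 ± 0.11) higher and Cd34 (-1.49 ± 0.11) and Flt3 (-1.75 ± 0.36) lower. On that date Kit (0.21 ± 0.10), Ly6a (0.53 ± 0.14) and Cd48 (-1.66 ± 0.45) were not called (edgeR adjusted p = 0.259, 0.0596 and 0.0573), whereas DESeq2 called Ly6a (adjusted p = 0.00604) and Cd48 (adjusted p = 0.00120). With a mouse left out, their changes on date 1 ran from 0.05 to 0.34 for Kit, from 0.34 to 0.70 for Ly6a and from -2.26 to -0.85 for Cd48, the last without mouse 478. Leaving out a single mouse left 3 to 5 calls on date 2 and 1 to 4 on date 1. On date 2 the Kit call was lost without any 1 of its 4 mice (edgeR adjusted p = 0.101 to 0.175), and the Ly6a call without 483 (0.0634) or 486 (0.0753). On date 1 Slamf1, Procr and Flt3 lost their calls without 478 (edgeR adjusted p = 0.167, 0.0781 and 0.125) and without 480 (0.1799, 0.0975 and 0.184), and without 477 Flt3 lost its call (0.0574) and Cd48 gained one (0.0181).

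Old and young vehicle libraries did not overlap for 7 of the 7 genes on date 2, against 52.4% of all genes tested, for 7 on date 1, against 55.1%, and for 3 with the dates together (Slamf1, Cd34 and Procr), against 16.7%. In dmPGE2 libraries 7 genes were apart on date 2, against 47.6% of genes, 6 on date 1 (all but Kit), against 57.7%, and 5 with the dates together (Ly6a, Slamf1, Cd34, Procr and Flt3), against 14.6%. Within a date, with 2 libraries on each side, such separation was common among all genes. Whether the age difference itself changed between the dates was tested in the vehicle libraries. None of the 7 was called, and no gene of 13369 was called by edgeR, with 788 at an unadjusted p under 0.05 (45 genes by DESeq2, none of them among the 7). The difference between the dates was 0.54 ± 0.16 for Procr and 0.47 ± 0.16 for Cd34 on the log2 scale (edgeR adjusted p = 0.652 and 0.751). It was 0.87 ± 0.49 for Flt3 and 0.68 ± 0.59 for Cd48. The shifts of Procr and Cd34 were well above their errors and yet not called, so shifts of that size could be missed. All 7 differences, date 2 minus date 1, were above 0, with a median of 0.47 against 0.02 over all genes tested. Such a value means a larger age difference on date 2 for Kit, Ly6a, Slamf1 and Procr, but a smaller one for Cd34, Flt3 and Cd48. The Cd48 value was -0.12 without mouse 478.

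The order of the levels differed between old and young mice. In old vehicle libraries the medians per kb were 298 CPM for Kit, 241 for Ly6a, 145 for Procr, 68.3 for Cd34, 34.1 for Slamf1, 16.2 for Cd48 and 5.19 for Flt3. In young vehicle libraries they were 255 CPM per kb for Kit, 172 for Cd34, 161 for Ly6a, 80.2 for Procr, 31.1 for Cd48, 15.5 for Flt3 and 14.5 for Slamf1. By these medians Cd34 stood below Procr and Ly6a in old mice and above both in young mice. Slamf1 was above Cd48 and Flt3 in old vehicle libraries and below both in young vehicle libraries, but these medians pool the dates: Slamf1 was above Cd48 in all young libraries of date 1 and below it in both libraries of old mouse 486. Neighbours whose ranges overlapped in old vehicle libraries were Kit and Ly6a, Slamf1 and Cd48, and Cd48 and Flt3. In young vehicle libraries they were Cd34 and Ly6a, Procr and Cd48, Cd48 and Flt3, and Flt3 and Slamf1. The order in old dmPGE2 libraries was that of old vehicle libraries, and in young dmPGE2 libraries only Slamf1 and Flt3, whose ranges overlapped, changed places.

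**Figure D3:**
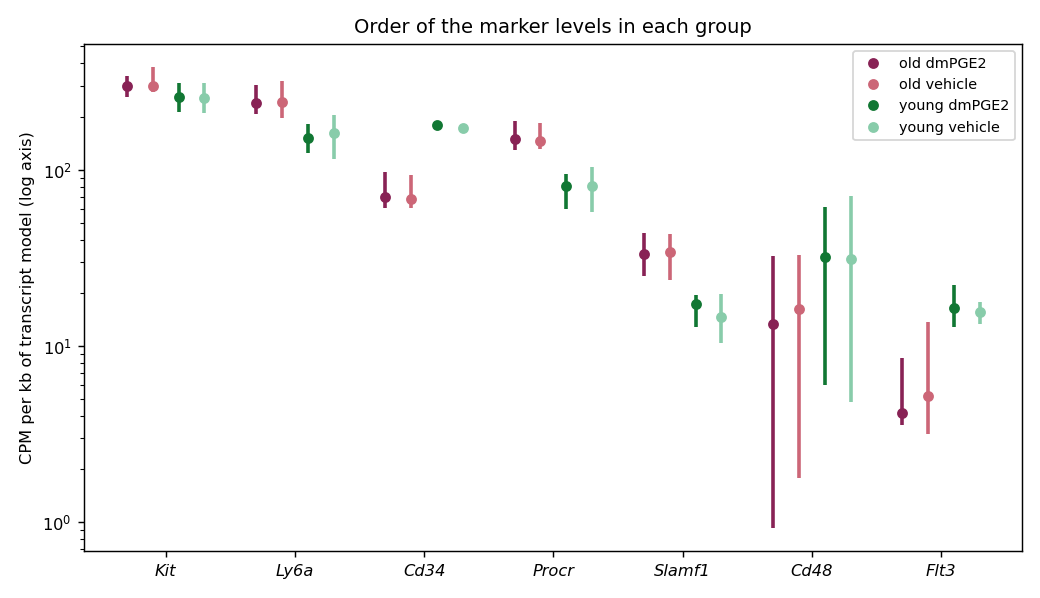
Median level of each marker per kb (dots) with the lowest and highest of 4 libraries (lines), on a log axis, in old dmPGE2, old vehicle, young dmPGE2 and young vehicle libraries. Cd34 lies below Procr in both old groups and above it in both young groups, and the ranges of Cd48 span 4.82 to 71.2 CPM per kb in young vehicle libraries.

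Within a library the ratio of a pair of markers does not depend on its depth. Procr over Cd34, per kb, had a median of 1.65 (range 1.32 to 1.91) in old and 0.344 (0.336 to 0.395) in young libraries of date 2, and of 2.71 (2.35 to 3.12) in old and 0.556 (0.514 to 0.597) in young libraries of date 1. All 8 old libraries were above 1 and all 8 young libraries below it. Both arms of each mouse are counted here, and every range in this paragraph covers both arms of 2 mice. Kit over Flt3 had a median of 41.9 (20.7 to 54.5) in old and 11.8 (9.50 to 12.3) in young libraries of date 2, and of 91.0 (64.7 to 121) in old and 22.4 (20.99 to 23.8) in young libraries of date 1. Old libraries of date 2 and young libraries of date 1 overlapped in this ratio. Slamf1 over Cd48, the pair that divides stem cells from progenitors in the SLAM scheme, had a median of 0.998 (0.722 to 1.36) in old and 0.222 (0.146 to 0.285) in young libraries of date 2, and of 17.4 (9.11 to 47.3) in old and 2.99 (1.41 to 4.09) in young libraries of date 1. It was higher in old than in young libraries on each date, and young libraries of date 1 were above all old libraries of date 2. These ratios restate the levels above and were not tested.

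Most of the 7 genes also differed between the dates. In the vehicle libraries, with a term for age, 5 of 7 markers were called between date 2 and date 1, against 11% of 13369 genes, 8% higher and 3.01% lower on date 2. Cd48 was higher on date 2, at 52.2 ± 22.1 CPM against 6.40 ± 5.22 CPM on date 1 (log2 3.15 ± 0.31; edgeR adjusted p = 7.1e-05). Kit (-0.40 ± 0.07), Ly6a (-0.50 ± 0.10), Procr (-0.55 ± 0.11) and Slamf1 (-0.54 ± 0.15) were lower on date 2. Cd34 (0.19 ± 0.10; edgeR adjusted p = 0.276) and Flt3 (0.82 ± 0.27; edgeR adjusted p = 0.0828) were not called, although Flt3 was by DESeq2 (adjusted p = 0.0153) and without mouse 485 (edgeR adjusted p = 0.0465); without mouse 486 it was 0.43 ± 0.15. The Slamf1 call (edgeR adjusted p = 0.0446) was lost without any 1 of mice 477, 478, 480, 483, 484 and 486, with edgeR adjusted p of 0.0790 to 0.135. Date 2 and date 1 did not overlap in vehicle libraries for Kit and Cd48, against 11.8% of all genes tested, and overlapped for the other genes, in which mice of both ages are pooled.

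In the dmPGE2 libraries 5 of 7 were called between the dates, against 11.7% of 13279 genes, 7.67% higher and 4.05% lower. Cd48 (3.43 ± 0.29) and Flt3 (0.71 ± 0.18) were higher and Kit (-0.39 ± 0.08), Procr (-0.42 ± 0.10) and Slamf1 (-0.42 ± 0.12) lower on date 2. Ly6a (-0.34 ± 0.10; edgeR adjusted p = 0.0508) and Cd34 (0.22 ± 0.12; edgeR adjusted p = 0.257) were not called. The Cd48 and Kit calls held without any 1 mouse. The Slamf1 call was lost under RLE scaling (edgeR adjusted p = 0.0530) and without any 1 of 477, 478, 479, 480, 483 and 486 (0.0504 to 0.185), the Procr call without 477, 478, 480 or 484 (0.0699 to 0.0924), and the Flt3 call without 477, 478, 479, 480 or 484 (0.0540 to 0.0921). Ly6a was called by DESeq2 (adjusted p = 0.0172), with no filter (edgeR adjusted p = 0.04996), and without 480 (0.0147) or 486 (0.0252).

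Markers of other blood cells moved with the dates and, in some lists, with age, as summed CPM of each list without the 7 genes. Of the lists below, the myeloid and the T and NK cell sums were lower in old than in young libraries on date 2 and higher on date 1. The 12 myeloid progenitor and neutrophil markers, with Mpo and the S100 proteins among them, summed to 1863 to 2180 CPM in old and 3008 to 4390 CPM in young libraries of date 2, and to 264 to 311 CPM in old and 125 to 163 CPM in young libraries of date 1. The 10 monocyte and macrophage markers summed to 961 to 1199 CPM in old and 1248 to 1857 CPM in young libraries of date 2, and to 511 to 599 CPM in old and 583 to 721 CPM in young libraries of date 1. The 9 erythroid markers in the table summed to 2020 to 2167 CPM in old and 3188 to 3325 CPM in young libraries of date 2, and to 1792 to 2064 CPM in old and 1643 to 2001 CPM in young libraries of date 1. These lists were thus highest in the young libraries of date 2, the libraries in which Cd48 was highest and Kit, Ly6a, Slamf1 and Procr lowest. On date 1 the neutrophil list came mostly from Prtn3, a granule protease, at 108 to 304 CPM. In vehicle libraries of that date 1 of the 12 genes of the list was called higher and 1 lower in old mice, against 3.52% and 2.95% of all genes tested.

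The 10 T and NK cell markers summed to 186 to 263 CPM in old and 277 to 329 CPM in young libraries of date 2, and to 125 to 183 CPM in old and 61.7 to 100.04 CPM in young libraries of date 1. Their defining members were at or near 0 on date 1: Cd3e and Cd8a stayed at or below 0.164 and 0.114 CPM, and Cd3d was at 0 counts in 6 of 8 libraries. Most of the date 1 sum came from Klrb1c, at 6.10 to 156 CPM, and Nkg7, at 23.5 to 81.0 CPM. On date 2 Cd3e ran from 6.20 to 15.5 CPM. The 9 B cell markers in the table summed to 50.9 to 87.3 CPM in old and 74.4 to 126 CPM in young libraries of date 2, and to 40.1 to 57.7 CPM in old and 47.2 to 58.9 CPM in young libraries of date 1. Most of the date 1 sum came from Cd79b alone, at 38.0 to 55.3 CPM, against 40.2 to 61.8 CPM on date 2. Cd79a was at most 0.459 CPM on date 1 and ran from 2.78 to 22.9 CPM on date 2. The 6 lymphoid-primed progenitor markers other than Flt3 summed to 96.5 to 169 CPM in old and 135 to 151 CPM in young libraries of date 2, and to 87.5 to 103 CPM in old and 55.8 to 92.2 CPM in young libraries of date 1, with old and young libraries overlapping on both dates. Notch1 made up most of the date 1 sum, with a median of 79.6 CPM there and 76.4 CPM on date 2. On date 1 Dntt and Il7r each reached no more than 0.603 CPM, and Rag1 no more than 0.0574 CPM. Rag2 was at 0 counts in all 8 libraries of that date. The overlap on date 1 thus describes mainly Notch1.

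The sum of the 11 megakaryocyte and platelet markers was higher in old libraries on both dates: it was 2387 to 2903 CPM in old and 1225 to 1617 CPM in young libraries of date 2, and 2737 to 3115 CPM in old and 1780 to 1916 CPM in young libraries of date 1. With age in vehicle 3 of these 11 were called higher and 0 lower over both dates, against 8.47% and 8.86% of all genes tested. On date 1 alone 2 were called higher, against 3.52% of genes, and 6 of 11 were above 0, with a median log2 change of 0.06. The 5 endothelial markers, of interest beside Procr, summed to 76.4 to 104 CPM in old and 24.3 to 47.8 CPM in young libraries of date 2, and to 112 to 143 CPM in old and 52.99 to 58.3 CPM in young libraries of date 1. These sums came mostly from Emcn, Kdr and Cldn5. Cdh5 and Plvap reached no more than 2.64 and 4.87 CPM on date 2 and 0.615 and 1.60 CPM on date 1. At most 7 of the B cell, 6 of the T and NK cell and 2 of the neutrophil markers were at 0 counts in a library. The part of these other markers in the age and date differences of the 7 genes was not tested.

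**Figure D4:**
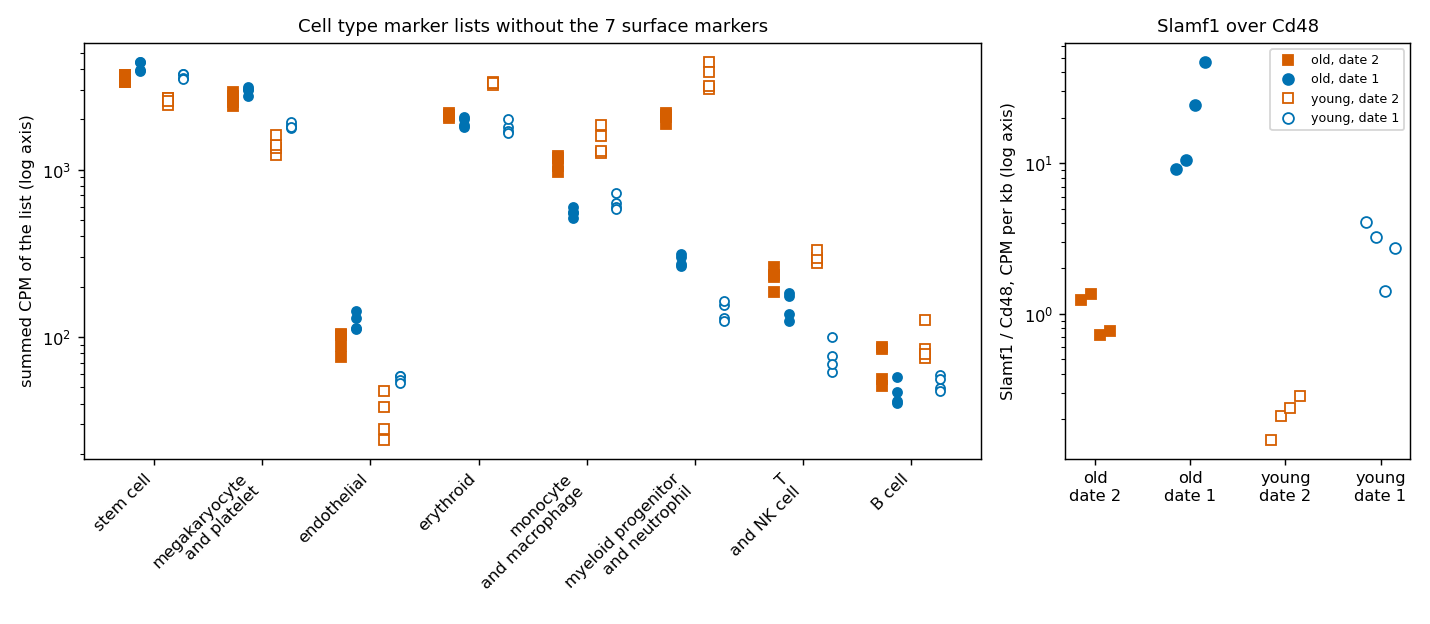
Left, summed CPM of each cell type list without the 7 markers (log axis) in every library; right, Slamf1 over Cd48 per kb (log axis), with filled symbols for old, open symbols for young, squares for date 2 and circles for date 1. Myeloid markers sum to 1863 CPM or more in all date 2 libraries and to 311 CPM or less in all date 1 libraries, and the ratio is 9.11 or more in old libraries of date 1 and 0.285 or less in young libraries of date 2.

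Treatment with dmPGE2 left the 7 markers without a called change. In the paired fit of all 16 libraries 0 of 7 were called by edgeR or by DESeq2, none had an unadjusted p under 0.05, and 85 genes (0.61% of 13942) were called, 71 higher (0.509%) and 14 lower (0.1%). The log2 changes of dmPGE2 over vehicle were -0.03 ± 0.03 for Kit, -0.03 ± 0.05 for Ly6a, 0.10 ± 0.07 for Slamf1, 0.05 ± 0.03 for Cd34, 0.01 ± 0.05 for Procr, -0.10 ± 0.10 for Flt3 and -0.20 ± 0.14 for Cd48. The errors were at most 0.05 for Kit, Ly6a, Cd34 and Procr and 0.14 for Cd48, but a call needed a change several times its error. Mycn, outside the 7, was only just called at -0.85 ± 0.14 (edgeR adjusted p = 0.0433). Changes of a few errors in the 7 could thus have been missed. The number of genes called over the whole table was 0 without mouse 477, 2 without 478, 1 without 479, 5 without 480, 55 without 483 and 166 without 485. Outside the 7, Ptprc, the pan-leukocyte phosphatase CD45, was called at 0.31 ± 0.04 (edgeR adjusted p = 0.0142). That call was lost without any 1 of mice 477, 478, 479 and 480 (edgeR adjusted p = 0.0525 to 0.0688) and without the replicate block (0.0506).

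Pair by pair, Kit moved by no more than 0.16 on the log2 scale in any mouse and Cd34 by no more than 0.12. Their vehicle levels ranged over 0.86 and 1.54 among all 8 mice, old and young mice of both dates together. Slamf1 was higher with dmPGE2 in 6 of 8 mice, with 0.47 in young mouse 484 and 0.30 in young mouse 483 the furthest from 0. Cd34 was likewise higher in 6 of 8. Cd48 was lower in 6 of 8 mice, among them all 4 old mice, with -0.88 in young mouse 478 and -0.87 in old mouse 480, where it had few counts. Kit and Ly6a were lower in 5 of 8 mice, and Procr and Flt3 were split 4 to 4. The largest pair difference of each gene was smaller than its range among all mice in vehicle, which was 5.24 for Cd48 and 2.47 for Flt3. That range holds the age and date differences described above, so it does not measure the spread among like mice. In young vehicle libraries alone Cd34 ran only from 8.75 to 8.85 in log2 CPM, while young mouse 484 moved by 0.12.

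**Figure D5:**
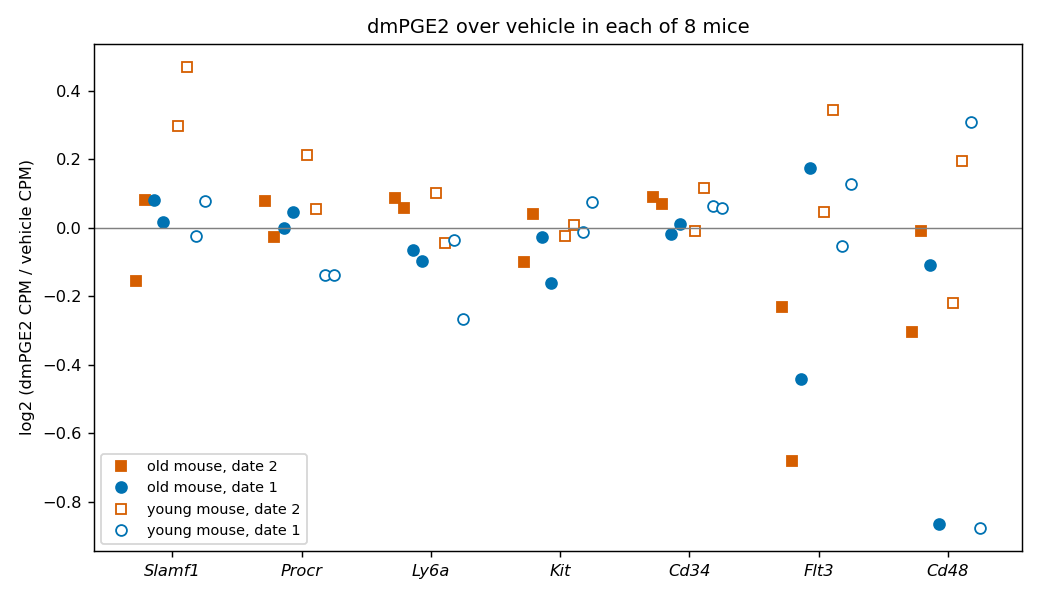
Log2 ratio of dmPGE2 over vehicle CPM of each marker in each of 8 mice, with filled symbols for old, open symbols for young, squares for date 2 and circles for date 1. The points of Kit and Cd34 lie within 0.16 of 0, and the farthest points are Cd48 in young mouse 478 (-0.88) and old mouse 480 (-0.87) and Flt3 in old mouse 486 (-0.68).

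By age, dmPGE2 was tested in old mice, in young mice and as the difference between them. In old mice no gene was called by edgeR, with 1096 at an unadjusted p under 0.05 and 114 called by DESeq2. Among the 7, Flt3 had the smallest p there (-0.31 ± 0.14; edgeR adjusted p = 0.623), with lower dmPGE2 values in 3 of 4 old mice. In young mice no gene was called by edgeR either, with 1785 at an unadjusted p under 0.05 and 269 called by DESeq2, and the smallest p of the 7 was that of Slamf1 (0.20 ± 0.10; edgeR adjusted p = 0.425). The difference between the ages was -0.43 ± 0.19 for Flt3 (edgeR adjusted p = 0.722) and -0.19 ± 0.14 for Slamf1 (edgeR adjusted p = 0.826), and no gene was called by edgeR, with 955 at an unadjusted p under 0.05 and 14 called by DESeq2. None of the DESeq2 calls was one of the 7. Between the dates, the dmPGE2 responses of 138 genes (0.99%) differed, and 0 of the 7 were among them. The largest difference of the 7 was 0.27 ± 0.27 for Cd48, followed by 0.17 ± 0.08 for Ly6a (edgeR adjusted p = 0.627).

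Other surface genes were described from a list of 50 receptors, adhesion molecules and antigens of stem and progenitor cells, of which 49 were in the table. With age, 15 of 48 tested rose and 5 fell in vehicle libraries, against 8.47% and 8.86% of all genes tested. The median log2 change of the 48 was 0.19 against -0.00 over all genes tested. In dmPGE2 libraries 17 rose and 6 fell, against 7.85% and 6.41% of genes, with a median of 0.23 against -0.01. The 4 with the smallest p in vehicle were all higher in old mice. Selp, the adhesion receptor P-selectin, averaged 445 ± 82.4 CPM in old and 32.2 ± 15.2 CPM in young vehicle libraries (log2 3.83 ± 0.25). Alcam, an immunoglobulin-type adhesion molecule, averaged 105 ± 10.1 CPM in old and 26.6 ± 5.63 CPM in young libraries (1.98 ± 0.15). Itgb3, the integrin beta chain shared by platelets and stem cells, averaged 397 ± 72.1 CPM in old and 111 ± 13.7 CPM in young libraries (1.83 ± 0.14), and Cd38, an NAD-consuming ectoenzyme, averaged 55.15 ± 5.26 CPM in old and 21.3 ± 3.75 CPM in young libraries (1.36 ± 0.15). In dmPGE2 libraries Jam2, a junctional adhesion molecule, took the place of Cd38 among these 4 (90.55 ± 17.3 CPM in old, 19.0 ± 4.84 CPM in young libraries; log2 2.27 ± 0.15).

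Between the dates, 12 of 48 other surface genes were higher and 5 lower on date 2 in vehicle libraries, against 8% and 3.01% of all genes tested. In dmPGE2 libraries 16 were higher and 10 lower, against 7.67% and 4.05%. Among those with the smallest p were genes of committed cells: over both arms, the Fc receptor Fcgr3 ran from 35.8 to 90.96 CPM on date 2 and from 2.30 to 10.4 CPM on date 1, and the interleukin-7 receptor Il7r from 7.38 to 20.5 CPM on date 2 and to no more than 0.603 CPM on date 1. With dmPGE2 none of 49 was called over all mice, against 0.61% of all genes tested. Between the dates the dmPGE2 response of 2 of 49 differed, against 0.99% of all genes tested. They were Tfrc, the transferrin receptor (-1.14 ± 0.21; edgeR adjusted p = 0.0171), and Cxcr4, the chemokine receptor that holds stem cells in the marrow (0.88 ± 0.19; edgeR adjusted p = 0.0474). The Cxcr4 call was lost with any 1 mouse left out (edgeR adjusted p = 0.0563 to 0.145), and that of Tfrc without 477, 480 or 484 (0.0567 to 0.0702).

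Lineage markers, the antigens by which mature cells are removed before a stem cell sort, were represented by 15 of 16 listed genes. In vehicle libraries 13 could be tested with age, and 1 was higher and 2 lower in old mice, against 8.47% and 8.86% of all genes tested. The higher one, Klrb1c, the NK cell receptor NK1.1, averaged 93.1 ± 43.4 CPM in old and 18.4 ± 4.83 CPM in young libraries (log2 2.29 ± 0.32). Its change was 1.52 ± 0.25 on date 2 and 3.05 ± 0.26 on date 1, where Ncr1, also of the T and NK cell list, was at 0 counts in 7 libraries. Of the 13, only 2 were above 0, with a median of -0.41, and Ncr1 was not called (-0.90 ± 0.46). Among the lower ones Ly6c2 averaged 35.9 ± 44.01 CPM in old and 66.1 ± 76.2 CPM in young libraries (-0.93 ± 0.21). The SDs of Ly6c2 mix dates: it ran from 52.9 to 153 CPM on date 2 and from 0.0622 to 1.48 CPM on date 1. By date, 9 of 13 were higher and none lower on date 2 in vehicle libraries, against 8% and 3.01% of all genes tested. In dmPGE2 libraries 11 were higher and none lower, against 7.67% and 4.05%. The summed level of the 15 was 516 to 654 CPM in old and 736 to 840.3 CPM in young libraries of date 2, and 303 to 451 CPM in old and 229 to 277 CPM in young libraries of date 1. A large part of it was Ptprc, the pan-leukocyte CD45, which is not confined to mature cells. Ptprc alone ran from 243 to 388 CPM on date 2 and from 198 to 285 CPM on date 1.

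Stem cell markers outside the 7 were described from the 10 other genes of that list. In vehicle libraries 6 of 10 rose in old mice and none fell, against 8.47% and 8.86% of all genes tested, with a median of 0.44. Fgd5, Mycn, Mecom, Gata2 and Hoxb5 were among those that rose. By date, 5 of 10 were called higher in old vehicle libraries on date 2, against 4.67% of genes, and 2 on date 1, against 3.52%. In dmPGE2 libraries 4 of 10 were called higher and none lower with age, against 7.85% and 6.41% of all genes tested. Mycn and Mecom were not called there (edgeR adjusted p = 0.152 and 0.116). Between the dates 6 of 10 were lower on date 2 and none higher in vehicle libraries, against 3.01% and 8% of all genes tested. Fgd5, a stem cell-restricted guanine exchange factor, averaged 161 ± 44.2 CPM in old and 95.6 ± 28.0 CPM in young vehicle libraries. With dmPGE2 1 of 10 was called, against 0.61% of all genes tested. It was Mycn, a Myc family transcription factor, which fell by 0.85 ± 0.14 on the log2 scale (edgeR adjusted p = 0.0433). Its change differed between the dates (0.74 ± 0.13; edgeR adjusted p = 0.0103), with -0.48 ± 0.09 on date 2 (not called; edgeR adjusted p = 0.0682) and -1.22 ± 0.09 on date 1 (edgeR adjusted p = 1.7e-06). Over both dates the call was lost without any 1 of mice 477, 478, 479, 480 and 484 (edgeR adjusted p = 0.0845 to 0.178).

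For each of the 7, the 3 genes with the most similar pattern were found among 10645 genes, as the root mean square difference of log2 CPM over 16 libraries after each gene's mean was removed. Slamf1 was nearest to Tgm2 (0.15), F2rl3 (0.17) and Ndn (0.17), where its own spread was 0.64, and Procr to Ezh1 (0.10), Adgrl4 (0.12) and Mmrn1 (0.12), with a spread of 0.56. Kit was nearest to Def8 (0.06), Rab38 (0.08) and Tspan14 (0.09), and Ly6a to Ifi47 (0.12), H2-T23 (0.14) and Grik5 (0.14). Among the progenitor markers, Cd34 was nearest to Mcm5 (0.20), Slc29a1 (0.21) and Zfp367 (0.21), and Flt3 to Bub1 (0.25), Kif11 (0.29) and Kif18b (0.30), where Mcm5 is a helicase subunit of DNA replication and Bub1, Kif11 and Kif18b act in mitosis. Cd48 was nearest to Plac8 (0.38), Tyrobp (0.51) and Ncf1 (0.52), against its own spread of 1.89, and Ncf1 is a subunit of the phagocyte oxidase. All 16 libraries of a pattern share the same mice, dates and depths, so these likenesses are descriptions of the libraries.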

How the data were processed

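The deposited table holds read counts per gene, made by the authors without normalization; STAR 2.5.2b, featureCounts, Subread 1.5.1 and mm10 are named, without roles, per the submitters' processing notes. The labels do not give the strand or the annotation used for counting. The table held 14829 genes and 2504 empty lines, which were left out, and 0 columns of samples were left unmatched. Totals ran from 12960704 to 19226963 counts, so 3 counts, the limit that a count of 0 allows, equal 0.156 to 0.231 CPM; this covers counting error only. Samples were grouped by the age and treatment labels. Counts were tested with edgeR 4.0.16 (quasi-likelihood test, robust, TMM, filterByExpr, Benjamini-Hochberg adjustment over all genes tested) in R 4.3.3, and scripts were tested on simulated data.

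For dmPGE2 over vehicle, 16 libraries were fitted with mouse as a block, which the design text gives by saying that each sample was split, and with dmPGE2 terms for old and young mice or, in a second fit, for date 2 and date 1. Libraries of the same mouse correlated at 0.375 to 0.626 after removal of group means and at 0.0141 to 0.181 after removal of group and date means. Age and date were fitted together in 8 vehicle or 8 dmPGE2 libraries, 1 per mouse. A standard error is the size of the log2 change divided by the root of its F statistic. Alternatives were RLE scaling, no filter, DESeq2 1.42.0, each mouse left out, no replicate block, no date or age term, each date alone and summed libraries of a mouse. Named genes were the 7, up to 4 called genes of the 2 other lists by smallest p in each comparison, the 3 most similar patterns (mean log2 CPM of at least 2, predicted genes passed over) and markers that check the label. Some genes that this rule names are not reported here. Genes picked out of lists for their level are markers of those lists. The members and lists were chosen with earlier results of these data known. Promoters are from RefSeq, GRCm38.p6.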

Additional observations from a re-analysis of the deposited data

How the results depend on the processing

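With age in vehicle, 7 of the 7 were called under RLE scaling, no filter, DESeq2 and summed libraries, 5 on either date alone, and 3 (Slamf1, Cd34 and Procr) without the term for date; every sign was kept under all of these and with each mouse left out (6 to 7 called). In dmPGE2 libraries 4 to 7 were called under all settings, 6 to 7 with each mouse left out. Between the dates 1 (Cd48) was called without the term for age in each arm, 6 by DESeq2 in each arm, and in dmPGE2 libraries 4 under RLE scaling and 6 with no filter, in place of 5; with each mouse left out it was 4 to 6 in vehicle and 2 to 5 in dmPGE2 libraries. On date 1 in vehicle DESeq2 called 6 in place of 4. With dmPGE2 0 of 7 were called under every setting, DESeq2 and no replicate block included.

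Counts of all genes called moved more. For age in vehicle they were 971 without the date term, 1092 on date 1 alone, 483 on date 2 alone and 1448 to 2129 with a mouse left out, in place of 2318. For age in dmPGE2 they were 804 without the date term, 264 on date 2 alone, 3365 in summed libraries and 1104 to 2167 with a mouse left out, in place of 1894. By date they were 559 without the age term and 902 to 1346 with a mouse left out in vehicle (1472), and 556 and 694 to 1864 in dmPGE2 libraries (1556). For dmPGE2 in all mice they were 175 without the replicate block, 447 by DESeq2, 725 on date 1 alone, 51 on date 2 alone and 0 to 166 with a mouse left out, in place of 85. DESeq2 called 114 in old mice, 269 in young mice, 14 by age and 242 by date; with a mouse left out edgeR called 0 to 4 in young mice and 0 to 2 by age. Age by date gave 1 gene under RLE scaling, 1 with no filter, 45 by DESeq2 and 0 to 10 with a mouse left out. In each case the cause was not tested.

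Reversed signs occurred among changes that were not called. With dmPGE2 in all mice Procr was -0.057 on date 1 alone and -0.025 to 0.032 with a mouse left out, and Ly6a 0.049 on date 2 alone. In old mice Slamf1 was -0.0019 with no filter and -0.0065 with no replicate block, and a mouse left out gave Slamf1 -0.022 to 0.052, Ly6a -0.042 to 0.025 and Procr -0.00044 to 0.041. In young mice a mouse left out gave Cd48 -0.28 to 0.075, Kit -0.015 to 0.023, Ly6a -0.11 to 0.0030 and Procr -0.075 to 0.040. By age Cd48 was 0.038 with no replicate block, and a mouse left out gave Cd48 -0.33 to 0.025, Cd34 -0.042 to 0.0034, Ly6a -0.0089 to 0.11 and Procr -0.016 to 0.099. By date a mouse left out gave Flt3 -0.24 to 0.11 and Kit -0.032 to 0.052, and age by date for Cd48 was then -0.12 to 1.27. Depth limits Cd48 on date 1, with 17 to 256 counts a library.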
